A study of Mus musculus with 8 samples.

Results

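The suppressors of cytokine signalling (SOCS) and the other feedback inhibitors of Janus kinases (JAK) were followed as 10 genes, matched by symbol among the 23337 genes of the count table. They are the 8 genes of the SOCS family (Cish and Socs1 to Socs7), the adaptor gene Sh2b3 and the phosphatase gene Ptpn6. RNA sequencing had been done on bone marrow of C57BL/6 mice aged 4 months, all of which carried JAK2V617F on 1 allele (JAK2V617F/+), so there is no group with unmutated Jak2. The mice were labelled Plek2+/+ or Plek2-/-, where Plek2 encodes pleckstrin-2. Erythroblasts, the nucleated precursors of red cells, had been taken as TER119-positive cells straight from marrow, and progenitors as Kit-positive cells of its lineage-negative fraction. Each of the 4 groups (erythroblasts or progenitors, by Plek2 label) held 2 libraries. Which cells carried the active mutant allele, and by what promoter, is not stated in the labels.

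Cytokine receptors of blood cells signal through JAK kinases, which phosphorylate STAT transcription factors. Among the genes that STATs switch on are SOCS genes, whose proteins bind receptors or JAKs, block the kinase or mark the complex for ubiquitin-dependent breakdown, and so close a feedback loop. Cish and Socs2 are classical targets of STAT5, the main STAT downstream of the erythropoietin receptor, while Socs3 is a classical target of STAT3, which acts downstream of the interleukin-6 family and granulocyte colony-stimulating factor. JAK2V617F keeps the kinase active without cytokine and drives red cell overproduction in polycythemia vera.

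Promoter sequence is shown for Cish, whose RNA differed most between populations, for Socs3 and Ptpn6, whose label effects differed between populations, and for Socs1, which held the interferon response cores described here. RefSeq windows (GRCm38.p6) of 300 bases, with the start site at base 251, were found for 6 of the 10 members. Capitals mark matches to the STAT core TTCNNNGAA or to the interferon response core, a pair of GAAA words with 2 bases between them, each searched on both strands.
Cish, chr9:107296409-107296708, plus strand: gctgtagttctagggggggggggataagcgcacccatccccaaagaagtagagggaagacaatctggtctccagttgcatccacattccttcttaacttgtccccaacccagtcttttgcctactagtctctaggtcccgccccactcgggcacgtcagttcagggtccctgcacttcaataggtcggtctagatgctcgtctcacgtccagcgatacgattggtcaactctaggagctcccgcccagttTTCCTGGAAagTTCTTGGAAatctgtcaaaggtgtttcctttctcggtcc
Socs3, chr11:117969317-117969616, minus strand: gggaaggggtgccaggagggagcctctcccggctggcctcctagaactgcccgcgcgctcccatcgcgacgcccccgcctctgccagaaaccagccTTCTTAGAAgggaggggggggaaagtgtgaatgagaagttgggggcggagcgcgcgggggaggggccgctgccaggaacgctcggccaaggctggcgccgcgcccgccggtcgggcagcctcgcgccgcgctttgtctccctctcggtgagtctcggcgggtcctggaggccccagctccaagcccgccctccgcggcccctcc
Ptpn6, chr6:124738660-124738959, minus strand: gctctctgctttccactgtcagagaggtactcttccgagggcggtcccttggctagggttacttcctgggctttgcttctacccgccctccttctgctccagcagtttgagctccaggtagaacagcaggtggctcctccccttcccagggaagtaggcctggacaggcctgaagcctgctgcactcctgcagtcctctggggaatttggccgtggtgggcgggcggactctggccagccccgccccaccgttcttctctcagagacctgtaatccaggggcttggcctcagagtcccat
Socs1, chr16:10785487-10785786, minus strand: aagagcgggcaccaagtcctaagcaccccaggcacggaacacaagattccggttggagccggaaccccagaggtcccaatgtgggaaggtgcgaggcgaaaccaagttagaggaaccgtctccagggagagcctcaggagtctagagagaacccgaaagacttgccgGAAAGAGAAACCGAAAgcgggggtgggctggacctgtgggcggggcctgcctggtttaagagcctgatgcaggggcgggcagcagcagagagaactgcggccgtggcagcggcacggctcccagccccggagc
The Cish window held 2 STAT cores, TTCCTGGAA at bases 251 to 259 and TTCTTGGAA at bases 262 to 270. Socs3 held 1, TTCTTAGAA at bases 97 to 105, and the windows of Socs1, Socs4, Sh2b3 and Ptpn6 held none. Of 32851 promoter windows of the same length, 8.30% held at least 1 STAT core and 0.457% held 2 or more. Socs1 held a pair of overlapping interferon response cores, GAAAGAGAAA at bases 168 to 177 and GAAACCGAAA at bases 174 to 183, and no other member's window held one, against 3.44% of all windows with at least 1. The GATA core AGATAA was in 11.2% of all windows and in 0 of these 6. These matches describe letters in a window, not binding.

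Library totals ran from 16038035 to 23521726 counts. Levels are counts-per-million (CPM) on totals rescaled by the trimmed mean of M-values (TMM), and levels set against each other between genes are reads-per-kilobase-per-million (RPKM), over 1 transcript length a gene. Whether the duplicate libraries are from different mice is not said, and p-values measure only the spread between these samples. Markers followed the purification: 12 erythroid markers summed to 40363 to 43671 CPM in erythroblast and 1058 to 1154 CPM in progenitor libraries, with 2 globin symbols listed at 0 throughout, while 12 stem and progenitor markers summed to 157 to 219 CPM and 948 to 1081 CPM. Neutrophil markers were nonetheless abundant in TER119-positive libraries, at 13541 to 22524 CPM over 15 genes. Plek2 was lower in erythroblasts labelled Plek2-/- (616 and 781 reads against 1770 and 1894) but higher in progenitors so labelled (130 and 173 against 29 and 21), which goes against that label, so "the Plek2-/- label" names the libraries and not a genotype shown by the counts. In both populations 4 Y-linked genes were called higher and Xist lower in the libraries labelled Plek2-/-, so sex and Plek2 label cannot be told apart in any comparison of labels.

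The members split into groups by population, and Cish differed most. Cish, the founding member of the family, which docks on activated receptors, had erythroblast levels of 34.7 and 36.2 CPM under the Plek2+/+ label and of 39.6 and 40.0 CPM under the Plek2-/- label. In progenitors it stood at 4.57 and 4.94 CPM under the Plek2+/+ label and at 4.47 and 4.10 CPM under the Plek2-/- label. Every erythroblast library lay far above every progenitor library. The difference was 7.49-fold in Plek2+/+ (log2 2.91, SE 0.12, edgeR adjusted p = 1.06e-10) and 9.50-fold under the Plek2-/- label (log2 3.25, SE 0.12, edgeR adjusted p = 3.65e-11). Cish passed the test in all 15 alternatives of each contrast. Its exons share bases with the opposite-strand genes Gm17040 (261) and Gm17041 (479), and the strand setting of the counting is not stated in the labels. In bulk libraries, fewer cells of a type and less RNA per cell cannot be told apart.

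**Figure D1:**
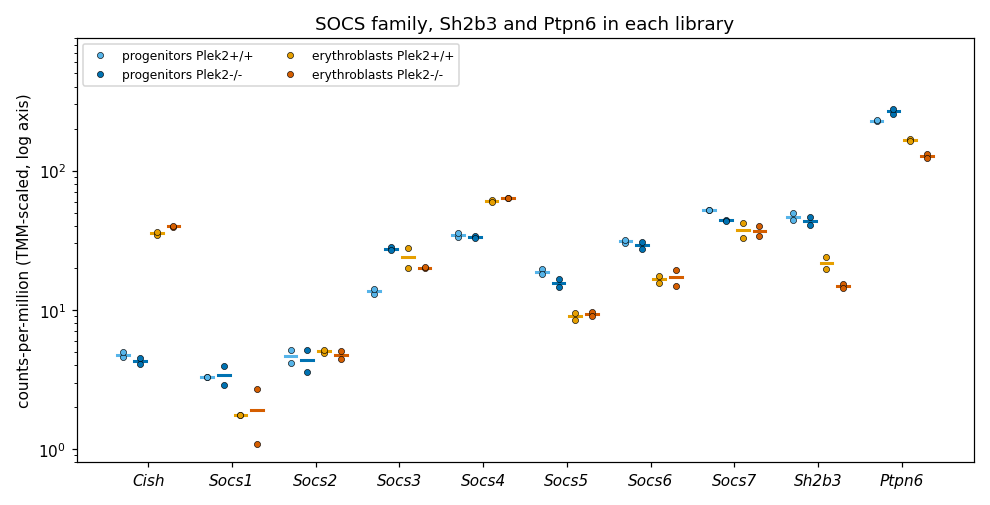
Level of each member in each of the 8 libraries, in TMM-scaled counts-per-million on a log axis, with 1 point per library and a short line at the mean of each group. Cish lies at 34.7 to 40.0 CPM in erythroblasts and 4.10 to 4.94 CPM in progenitors, and Socs3 is lowest in Plek2+/+ progenitors.

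Socs4, a less studied member that acts on receptors of the epidermal growth factor family in other cells, was the other SOCS gene higher in erythroblasts under both labels. Its erythroblast levels were 61.9 and 59.8 CPM (Plek2+/+) and 64.1 and 63.5 CPM (Plek2-/- label), and its progenitor levels 33.3 and 35.4 CPM (Plek2+/+) and 33.9 and 32.6 CPM (Plek2-/- label). The groups of the populations did not overlap, with log2 fold changes of 0.84 (SE 0.08, edgeR adjusted p = 9.33e-07) and 0.97 (SE 0.08, edgeR adjusted p = 1.86e-07).

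Most other members were lower in erythroblasts. Sh2b3, also called LNK, an adaptor that binds JAK2 and the thrombopoietin and erythropoietin receptors and restrains their signal, had 23.9 and 19.7 CPM in erythroblasts against 49.3 and 44.3 CPM in progenitors of the Plek2+/+ label. Under the Plek2-/- label it stood at 15.4 and 14.3 CPM in erythroblasts and at 40.4 and 46.1 CPM in progenitors. Sh2b3 was 2.12-fold lower in erythroblasts in Plek2+/+ (edgeR adjusted p = 2.63e-06) and 2.85-fold lower under the Plek2-/- label (edgeR adjusted p = 1.47e-07). Its exons share 99 bases with the opposite-strand gene Atxn2. Reads of that stretch cannot be told apart unless the counting used strand, which is not stated.

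Socs5 and Socs6 showed the same order at lower levels. Socs5, which like Socs4 is known to act on epidermal growth factor receptors, lay at 8.41 to 9.70 CPM over the 4 erythroblast libraries and at 14.7 to 19.6 CPM over the 4 progenitor libraries, with log2 fold changes of -1.05 in Plek2+/+ and -0.72 under the Plek2-/- label (edgeR adjusted p = 1.12e-05 and 0.000345). Socs6, which binds the Kit receptor and limits its signal, lay at 14.8 to 19.5 CPM in erythroblasts and 27.5 to 31.9 CPM in progenitors, with log2 fold changes of -0.91 and -0.75 (edgeR adjusted p = 3.31e-05 and 0.000180). Neither gene had an erythroblast library as high as any progenitor library.

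Ptpn6 and Socs7 were lower in erythroblasts by smaller amounts in Plek2+/+. Ptpn6, the phosphatase SHP-1, which removes phosphate from JAK2 and the erythropoietin receptor, had a log2 fold change of -0.45 in Plek2+/+ (SE 0.08, edgeR adjusted p = 0.000166) and -1.04 under the Plek2-/- label (SE 0.08, edgeR adjusted p = 5.71e-08). Socs7 had -0.46 in Plek2+/+ (SE 0.12, edgeR adjusted p = 0.00284) and -0.22 under the Plek2-/- label, which did not pass (SE 0.12, edgeR adjusted p = 0.106). Without Plek2+/+ erythroblast replicate 2 the Socs7 value in Plek2+/+ was -0.26 and no longer passed (edgeR adjusted p = 0.0953). Under the Plek2-/- label Socs7 passed without Plek2-/- erythroblast replicate 2 (-0.35, edgeR adjusted p = 0.0275), without the filter on low counts (-0.25) or with library sizes only (-1.0).

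Socs1, an inhibitor that plugs the catalytic groove of JAKs and restrains interferon signalling, was near the floor of these data. It had 16 to 35 reads in erythroblast and 71 to 100 reads in progenitor libraries, and was 1.85-fold and 1.79-fold lower in erythroblasts under the 2 labels (edgeR adjusted p = 0.0276 and 0.0353). The Plek2+/+ value failed when any 1 of the 4 Plek2+/+ libraries was left out (edgeR adjusted p = 0.131 and 0.116 without erythroblast replicates 1 and 2, 0.0704 and 0.0692 without progenitor replicates 1 and 2). The other value failed without Plek2-/- erythroblast replicate 2 (log2 -0.29, edgeR adjusted p = 0.422) or Plek2-/- progenitor replicate 1 (log2 -0.60, edgeR adjusted p = 0.173), and with DESeq2 (adjusted p = 0.0637) or in a fit of the 4 Plek2-/- libraries alone (edgeR adjusted p = 0.0631).

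Socs2, which limits growth hormone receptor signalling, was the 1 member called under neither label between populations. Its 8 libraries lay between 3.57 and 5.13 CPM, with overlapping groups and log2 fold changes of 0.13 (95% confidence interval -0.34 to 0.60) and 0.17 (95% confidence interval -0.32 to 0.65). Cish and Socs2, both classical STAT5 targets, thus had values far apart in this contrast.

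In all, 9 of 10 members passed in Plek2+/+ (3 higher, 6 lower) and 8 of 10 under the Plek2-/- label (2 higher, 6 lower). That is close to the background, since 73.8% (36.0% higher, 37.8% lower) and 76.7% (37.5% higher, 39.2% lower) of 13365 tested genes passed. Libraries of the populations did not overlap for 9 of 10 members under each label (3 higher and 6 lower, then 2 higher and 7 lower), against 88.9% of all genes in Plek2+/+ (42.1% higher, 46.9% lower) and 88.1% under the Plek2-/- label (41.3% higher, 46.9% lower). The median log2 fold change of the 10 members was -0.45 and -0.57, and that of all tested genes -0.058 and -0.070. With library sizes only, the median of all genes was -0.87 and -0.86, so a value near 0 has no fixed meaning here and each is best read against that median. Relative to it, Cish stood at 2.96 and 3.32 and Socs3 at 0.88 and -0.35 on the log2 scale. With library sizes only, Socs2 was called lower (-0.68 and -0.62, edgeR adjusted p = 0.0125 and 0.0222) and Socs3 in Plek2+/+ and Socs4 under both labels no longer passed.

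**Figure D2:**
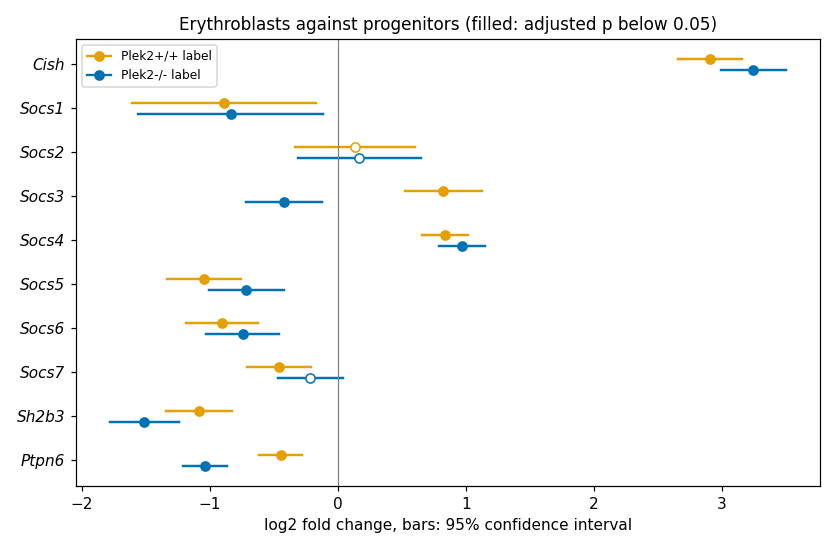
Log2 fold change of erythroblasts against progenitors for each member, under the Plek2+/+ label and the Plek2-/- label, with 95% confidence intervals and filled points at an edgeR adjusted p below 0.05. Cish stands at 2.91 and 3.25, and Socs3 lies at 0.82 under Plek2+/+ and at -0.42 under the Plek2-/- label.

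Per length, the make-up of SOCS RNA differed between the populations. Cish made up 28.6% ± 0.0882 of the summed RPKM of the 8 SOCS genes in Plek2+/+ erythroblasts and 31.7% ± 0.603 in those labelled Plek2-/-, against 5.24% ± 0.257 and 4.33% ± 0.00105 in progenitors (SD, n = 2 each). Socs7 made up 23.3% ± 0.148 in Plek2+/+ progenitors and 12.3% ± 2.5 in Plek2+/+ erythroblasts (SD, n = 2 each). Socs3 made up 16.7% ± 0.754 in Plek2+/+ progenitors and 31.0% ± 0.835 in those labelled Plek2-/- (SD, n = 2 each). With the merged length of all annotated exons, the share of Cish was 17.4% and 19.6% in erythroblasts and 2.98% and 2.41% in progenitors (Plek2+/+ then Plek2-/- label). The shares of the other SOCS genes fall as Cish or Socs3 takes more, since they sum to 100%.

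**Figure D3:**
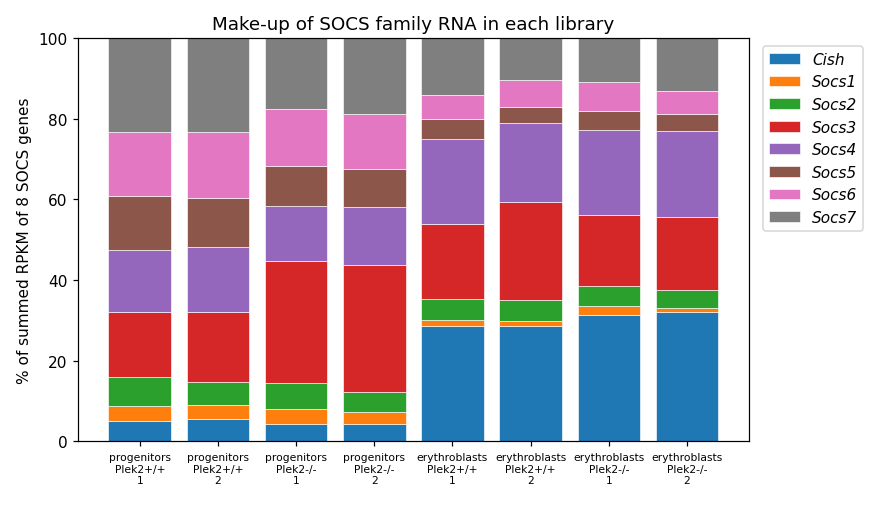
Share of each SOCS gene in the summed reads-per-kilobase-per-million of the 8 genes, in percent, with 1 stacked bar per library. Cish takes 28.5% to 32.2% in erythroblast libraries and 4.33% to 5.42% in progenitor libraries.

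Ptpn6 was the most abundant member per length in each group, at 75 ± 1.83 and 57.5 ± 2.48 RPKM in erythroblasts and 103 ± 1.52 and 121 ± 7.70 RPKM in progenitors (Plek2+/+ then Plek2-/- label, SD, n = 2 each). Its exons share 195 bases with the opposite-strand gene Gm20531, whose reads cannot be told apart there unless the counting used strand, which is not stated. In Plek2+/+ erythroblasts Cish followed at 12.4 RPKM, then Socs3 at 9.33 and Socs4 at 8.84, then Socs7 at 5.34 and Sh2b3 at 5.19, Socs6 at 2.74, Socs2 at 2.26, Socs5 at 1.93 and Socs1 at 0.604 RPKM. Libraries overlapped between the neighbours Socs3 and Socs4 and between Socs7 and Sh2b3. Erythroblasts labelled Plek2-/- kept Cish next after Ptpn6 at 14.0 RPKM, followed by Socs4 at 9.27, Socs3 at 7.84, Socs7 at 5.29, Sh2b3 at 3.54, Socs6 at 2.84, Socs2 at 2.14, Socs5 at 2.01 and Socs1 at 0.652 RPKM, with overlap between Socs2 and Socs5.

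In Plek2+/+ progenitors Sh2b3 followed Ptpn6 at 11.2 RPKM, then Socs7 at 7.42, Socs3 at 5.31, Socs6 at 5.17, Socs4 at 4.99, Socs5 at 4.05, Socs2 at 2.09, Cish at 1.67 and Socs1 at 1.1 RPKM. Socs3, Socs6 and Socs4 overlapped as neighbours. In progenitors labelled Plek2-/- Socs3 came next after Ptpn6 at 10.7 RPKM and overlapped with Sh2b3 at 10.3, before Socs7 at 6.29, Socs6 at 4.84, Socs4 at 4.84, Socs5 at 3.37, Socs2 at 1.95, Cish at 1.5 and Socs1 at 1.17 RPKM. Socs6 and Socs4 overlapped. These values use 1 transcript length a gene, and with the merged length of all annotated exons Cish, whose length grows from 2850 to 6419 bases, is in position 4 in both erythroblast groups, and Socs2 in place of Socs1 is in position 10 in all 4 groups.

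The first comparison of labels asks how these genes differ between Plek2 labels in progenitors, and there Socs3 rose. No SOCS gene passed the test in the other direction, in which only 0.402% of all genes tested passed. Socs3, the inhibitor that shuts off signalling of the interleukin-6 family and granulocyte colony-stimulating factor, had 13.1 and 14.0 CPM under the Plek2+/+ label and 28.0 and 26.7 CPM under the Plek2-/- label. These are 280 and 412 reads against 709 and 808. Both libraries of one label lay above both of the other, as did 20.6% of all genes tested. The rise was 2.05-fold (log2 1.04, SE 0.09, 95% confidence interval 0.83 to 1.25, edgeR adjusted p = 0.00154). It passed in all 12 alternatives, at 0.98 to 1.08, with adjusted p from 1.13e-16 to 0.00332.

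Of the 10 members, Socs3 was the 1 called in progenitors (1 of 10, against 4.91% of 13168 tested genes, 4.50% higher and 0.402% lower). Libraries of the labels did not overlap for 5 of 10 members (2 higher, 3 lower), against 49.1% of all genes (20.6% higher, 28.5% lower). The median log2 fold change of the members was -0.071 and that of all genes tested -0.010. Ptpn6 had a value of 0.25, with 227 and 231 CPM under the Plek2+/+ label and 255 and 280 CPM under the Plek2-/- label (SE 0.07, edgeR adjusted p = 0.0945). It passed in 4 of its 12 alternatives, with log2 values from 0.18 to 0.32 over all 12. Those 2 ends were the fits without Plek2-/- progenitor replicate 2 and replicate 1, which leave 1 library in that group. Socs7 stood at 52.1 and 52.0 against 44.5 and 43.8 CPM (log2 -0.21, SE 0.07, edgeR adjusted p = 0.160), and Socs5 at 19.6 and 18.0 against 16.7 and 14.7 CPM (log2 -0.24, SE 0.11, edgeR adjusted p = 0.327). Each passed in 1 of its 12 alternatives, the fit without Plek2-/- progenitor replicate 1. The spread in that fit came from the other label only, and calls over all genes also changed with the library left out. The remaining members had values of -0.13 for Cish (95% confidence interval -0.50 to 0.24), 0.072 for Socs1, -0.072 for Socs2, -0.022 for Socs4, -0.069 for Socs6 and -0.085 for Sh2b3.

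Neutrophil markers moved beside Socs3. All 15 tested were called higher in progenitors labelled Plek2-/-, and their summed level was 4550 to 7493 CPM under the Plek2+/+ label and 19356 to 25926 CPM under the Plek2-/- label, with 0 of the 15 at 0 counts in any library. Over the 8 libraries the genes most like Socs3 were Grk6 (Pearson r = 0.98), Fpr2 (0.93) and Fpr1 (0.93), the latter 2 being receptors for bacterial formyl peptides on phagocytes, out of 8947 genes compared with members left out. Fpr1 levels in progenitors were 13.5 ± 2.02 CPM under the Plek2+/+ label and 43.4 ± 7.31 CPM under the Plek2-/- label (SD, n = 2 each). These 8 libraries fall into 2 purifications of 4 libraries each, and the part of other cells in the Socs3 result was not tested. Eosinophil, basophil and mast cell markers had 0 of 9 called by edgeR, though 7 had an unadjusted p below 0.05, with a median of -0.44. B cell markers had 0 of 12 called by edgeR, 1 having an unadjusted p below 0.05, and monocyte and macrophage markers had 1 of 11 called lower, 7 having an unadjusted p below 0.05 and 5 a positive value. Megakaryocyte markers had 1 of 10 called higher by edgeR and 0 by DESeq2, and 9 with a positive value (median 0.30). Stem and progenitor markers and T and NK cell markers each had 0 of 12 called and 4 with an unadjusted p below 0.05. In each of these lists 9 values were negative and 3 positive (medians -0.11 and -0.13). Erythroid markers had 0 of 10 called and 4 with an unadjusted p below 0.05, with 8 positive values and 2 negative (median 0.059).

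**Figure D4:**
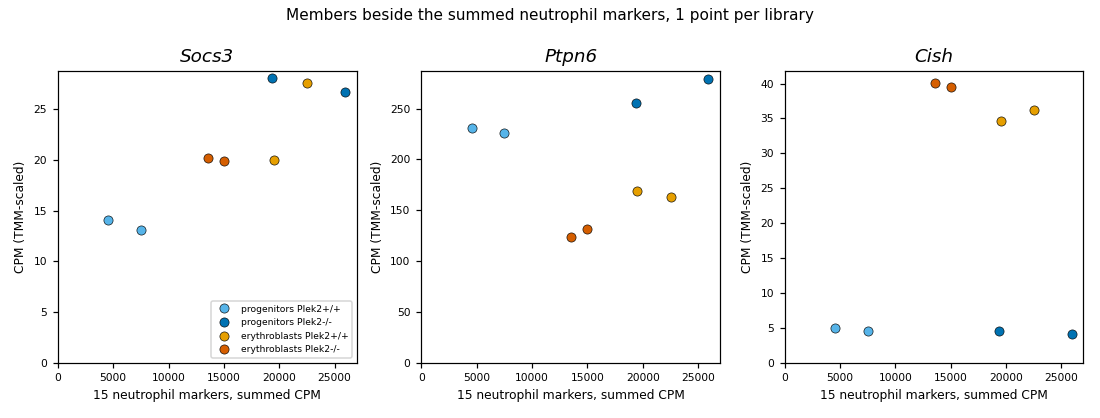
Level of Socs3, Ptpn6 and Cish (vertical axis, TMM-scaled counts-per-million) against the summed level of 15 neutrophil markers (horizontal axis, the same unit), with 1 point per library coloured by group. The Plek2+/+ progenitors are lowest for both Socs3 and the markers, while Cish separates the populations at 34.7 CPM and above against 4.94 CPM and below. Ptpn6 is higher in progenitors than in erythroblasts under both labels, at 227 CPM and above against 169 CPM and below.

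Other genes of the pathway were followed in lists, where 4.50% of all genes tested in progenitors were called higher and 0.402% lower. Of 23 other negative regulators of cytokine signalling 4 were called higher and 0 lower in progenitors labelled Plek2-/- (median 0.047). They were Dusp6, a phosphatase of ERK kinases (log2 0.83, edgeR adjusted p = 0.00580), Ptprc, the CD45 phosphatase of white blood cells (0.44, 0.0104), Pdlim2, a ubiquitin ligase that acts on STAT proteins (0.55, 0.0240), and Sirpa, a myeloid inhibitory receptor that recruits SHP-1 (0.32, 0.0297). Of 10 upstream receptors Csf3r, the granulocyte colony-stimulating factor receptor, and Csf2ra, the alpha chain of the GM-CSF receptor, were called higher (1.28 and 0.35, edgeR adjusted p = 0.000925 and 0.0445; median -0.045). The 11 kinases and STATs had a median of 0.13, with 8 values above 0. Of 20 STAT5 and STAT3 target genes 7 were called higher and 0 lower (median 0.25). Those with the lowest adjusted p were Osm, encoding the cytokine oncostatin M (0.78), and the transcription factor genes Cebpd (0.84), Junb (0.58) and Bcl6 (0.90). All 15 neutrophil markers were called higher in the same comparison (median 1.72), and the part of other cells in the calls of these lists was not tested. The ubiquitin ligase list held 8 genes chosen as parts or partners of such ligases (Tceb1, Tceb2, Cul5, Cul2, Rnf7, Rbx1, Arih2 and Ube2f). Not all of them belong to the ligase that SOCS proteins recruit. Of the 8, 0 were called by edgeR, DESeq2 or limma-voom and 0 had an unadjusted p below 0.05. Tceb2, which encodes elongin B and is the most abundant of the list per length (53.4 RPKM in Plek2+/+ progenitors), stood at -0.031.

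In erythroblasts the comparison of labels gave 1 call among the 10 members, Ptpn6, where 2.84% of 12241 tested genes passed (0.180% higher, 2.66% lower). Ptpn6 had 169 and 164 CPM under the Plek2+/+ label and 131 and 124 CPM under the Plek2-/- label. Both Plek2-/- libraries lay below both Plek2+/+ libraries, as they did for 24.2% of all genes tested. Non-overlapping libraries were found for 4 of 10 members in all (2 higher, 2 lower), against 45.3% of all genes (21.1% higher, 24.2% lower). Ptpn6 fell 1.29-fold (log2 -0.37, SE 0.09, 95% confidence interval -0.56 to -0.18, edgeR adjusted p = 0.0405). The call was lost without Plek2+/+ replicate 1 (edgeR adjusted p = 0.310), Plek2+/+ replicate 2 (0.172) or Plek2-/- replicate 2 (0.170), with log2 values from -0.42 to -0.34 over its alternatives.

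Sh2b3 was next, with 23.9 and 19.7 CPM under the Plek2+/+ label and 15.4 and 14.3 CPM under the Plek2-/- label. Its libraries did not overlap, but at a log2 value of -0.54 (SE 0.14, 95% confidence interval -0.86 to -0.23) it missed the threshold (edgeR adjusted p = 0.0681). It passed in 4 of its 11 alternatives in all, with log2 values from -0.69 to -0.40 over the 11. Among the 4 was the fit without Plek2-/- replicate 1 (-0.61), which leaves 1 library in that group.

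No SOCS family gene was called in erythroblasts: 0 of 8 by edgeR, DESeq2 or limma-voom, and 0 at an unadjusted p below 0.05. Few calls were likely for 8 genes, since edgeR called 2.84% of 12241 genes tested, and 1794 of them had an unadjusted p below 0.05. Cish was higher in both Plek2-/- libraries, by a log2 value of 0.18 that did not pass (95% confidence interval -0.049 to 0.41, edgeR adjusted p = 0.471). Socs3 stood at 20.0 and 27.6 CPM under the Plek2+/+ label and at 19.9 and 20.2 CPM under the Plek2-/- label, with overlapping libraries and a log2 value of -0.24 (95% confidence interval -0.57 to 0.10, edgeR adjusted p = 0.526). Without Plek2+/+ replicate 2 the Socs3 value was -0.0072. Values of the other SOCS genes lay between -0.072 for Socs2 and 0.092 for Socs1, and the interval of Socs1 reached from -0.79 to 0.98. The members' median was 0.030, beside 0.011 over all genes tested.

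Markers of some other blood cells moved beside Ptpn6 and Sh2b3 in these libraries. Neutrophil markers had 10 of 15 called lower and summed to 19515 to 22524 CPM under the Plek2+/+ label and 13541 to 15004 CPM under the Plek2-/- label. B cell markers had 6 of 12 called lower, with sums of 190 to 222 CPM against 89.3 to 127 CPM. Eosinophil, basophil and mast cell markers had 4 of 9 called lower by edgeR and 2 by DESeq2, with sums of 2086 to 2480 CPM against 884 to 1317 CPM. All 9 values were negative (median -0.56), but the eosinophil genes Prg2 and Epx held most of the sum. Prg2 had group means of 1699 and 807 CPM and Epx of 405 and 191 CPM (Plek2+/+ then Plek2-/- label). The basophil and mast cell genes Mcpt8 (25.2 and 24.9 CPM) and Cpa3 (10.5 and 9.21 CPM) differed little. Their part in the Ptpn6 and Sh2b3 values was not tested. Other lists had fewer calls. Monocyte and macrophage markers had 0 of 11 called by edgeR (median -0.029), and megakaryocyte markers 0 of 10 (median 0.0064). T and NK cell markers had 1 of 10 called lower, with 9 negative values and 1 positive (median -0.45). Stem and progenitor markers had 0 of 11 called, with 8 negative values and 3 positive (median -0.28), and 3 of the 11 had an unadjusted p below 0.05. No erythroid marker of 10 was called by edgeR, and none (0) had an unadjusted p below 0.05.

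Each pathway list but one held a single call in erythroblasts, and each of those calls was lower under the Plek2-/- label. Over all genes tested there, 2.66% were called lower and 0.180% higher. Among 23 other negative regulators it was Ptpn1, the phosphatase PTP1B, which acts on JAK2 (log2 -0.45, edgeR adjusted p = 0.0341; median -0.11). Among 10 receptors it was Csf2rb, the shared beta chain of the interleukin-3 and GM-CSF receptors (-0.66, 0.00762; median -0.29), and among 11 kinases and STATs it was Stat3 (-0.46, 0.0286; median -0.14). Among 20 target genes it was Il4ra, the interleukin-4 receptor gene (-0.53, 0.0283, median -0.13). The part of other cells in these calls was not tested. The 8 genes of the ubiquitin ligase list had 0 calls by edgeR, DESeq2 or limma-voom and 1 with an unadjusted p below 0.05, with Tceb2 at -0.010.

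Whether the label effect differed between populations was tested by the interaction, the effect in erythroblasts minus that in progenitors. It was called for 2 of the 10 members, Socs3 and Ptpn6, where 5.55% of 13365 tested genes passed (0.232% higher, 5.32% lower). For Socs3 the difference was -1.24 on the log2 scale (SE 0.19, 95% confidence interval -1.66 to -0.82, edgeR adjusted p = 0.00184). With TMM scaling, Socs3 was 1.77-fold higher in erythroblasts than in progenitors under the Plek2+/+ label (edgeR adjusted p = 0.000139). Under the Plek2-/- label it was 1.34-fold lower (edgeR adjusted p = 0.0126, not passing without Plek2-/- erythroblast replicate 1). With library sizes only the log2 values were 0.0031 and -1.21, so the turn from higher to lower depends on the scaling between populations. Neutrophil markers turned the same way, with 14 of 15 called higher in erythroblasts under the Plek2+/+ label (median 1.62) and 15 of 15 called lower under the Plek2-/- label (median -0.81). The part of other cells in this turn was not tested. For Ptpn6 the difference was -0.59 (SE 0.11, 95% confidence interval -0.83 to -0.35, edgeR adjusted p = 0.00561). Both passed in all 14 alternatives of the interaction, with adjusted p at most 0.00823 for Socs3 and at most 0.0403 for Ptpn6.

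**Figure D5:**
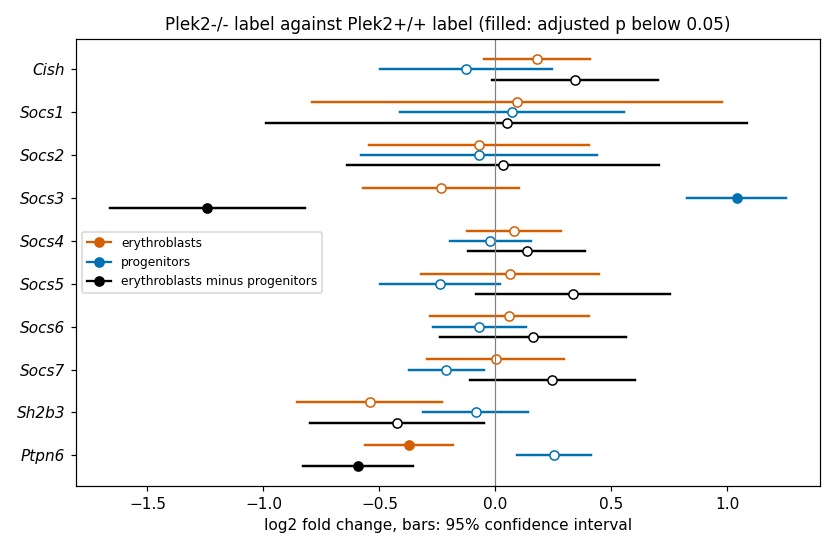
Log2 fold change of the Plek2-/- label against the Plek2+/+ label for each member in erythroblasts and progenitors, and the difference between those effects, with 95% confidence intervals and filled points at an edgeR adjusted p below 0.05. Socs3 stands at 1.04 in progenitors and -0.24 in erythroblasts, and Ptpn6 at 0.25 and -0.37.

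The remaining members had interaction values that did not pass, from -0.43 for Sh2b3 (95% confidence interval -0.80 to -0.051, edgeR adjusted p = 0.210) to 0.34 for Cish (95% confidence interval -0.017 to 0.70, edgeR adjusted p = 0.300). The median over the 10 members was 0.092 and over all genes 0.038. Neutrophil markers again stood beside Socs3 and Ptpn6, with 15 of 15 called lower in the interaction (median -2.41), as did 5 of 12 B cell markers (median -1.04). Between populations under the Plek2+/+ label, Ptpn6 was lower in erythroblasts (log2 -0.45) where 14 of 15 neutrophil markers were called higher (median 1.62). Under the Plek2-/- label both were lower in erythroblasts (log2 -1.04 and median -0.81). The part of other cells in the Ptpn6 values was not tested. The genes most like Ptpn6 over the 8 libraries were Ppp1r18, Ccdc88b and Ppp3ca (Pearson r = 0.998, 0.998 and 0.997, among 8947 genes). Ccdc88b stood at 61.5 ± 0.791 and 40.3 ± 3.28 CPM in erythroblasts and at 112 ± 3.01 and 138 ± 9.30 CPM in progenitors (Plek2+/+ then Plek2-/- label, SD, n = 2 each).

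The same test called 5 of 23 other negative regulators, 3 of 10 receptors, 1 of 11 kinases and STATs and 7 of 20 target genes, each with a lower effect in erythroblasts. Over all genes tested 5.32% were called lower and 0.232% higher, so nearly all calls ran in that direction. Lowest in adjusted p were Ptprc (log2 -0.71), Ptpn1 (-0.53), Dusp6 (-0.83) and Sirpa (-0.45) among the regulators, Csf3r (-1.60), Csf2rb (-0.73) and Csf2ra (-0.73) among the receptors, and Cebpd (-1.34), Gadd45g (-1.35), Osm (-0.89) and Junb (-0.80) among the targets. Stat3, the STAT known to induce Socs3, had a difference of -0.71 (edgeR adjusted p = 0.00493). Its levels were 85.1 ± 0.471 and 61.4 ± 6.25 CPM in erythroblasts and 145 ± 4.27 and 172 ± 15.8 CPM in progenitors (Plek2+/+ then Plek2-/- label, SD, n = 2 each). Whether the levels of Stat3 and Socs3 are linked was not tested, nor was the part of other cells in the calls of these lists. The ubiquitin ligase list had 0 of 8 called by edgeR, DESeq2 or limma-voom and 1 with an unadjusted p below 0.05, with Tceb2 at 0.053.

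Between populations 5 of 8 genes of the ubiquitin ligase list were called higher and 0 lower in erythroblasts in Plek2+/+ (median 0.85), where 36.0% of all genes tested were called higher. Under the Plek2-/- label 8 of 8 were called higher by edgeR and 7 of 8 by DESeq2 (median 0.89), where 37.5% of all genes were called higher by edgeR. Other negative regulators had 5 higher and 13 lower of 23 in Plek2+/+ and 5 higher and 16 lower under the Plek2-/- label (medians -0.42 and -0.82). Over all genes tested 37.8% were called lower in Plek2+/+ and 39.2% under the Plek2-/- label. Receptors had 1 higher, the erythropoietin receptor gene Epor, and 8 or 9 lower of 10 (medians -1.24 and -1.88). Under the Plek2+/+ label Epor had 241 ± 7.70 CPM in erythroblasts against 20.6 ± 1.16 CPM in progenitors (SD, n = 2 each), the same order as Cish. Whether the levels of Epor and Cish are linked was not tested. Kinases and STATs had 4 higher and 6 lower of 11 in Plek2+/+ and 3 higher and 7 lower under the Plek2-/- label, and target genes 7 higher and 8 lower of 20 and 5 higher and 12 lower.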

How the data were processed

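Each value starts from the authors' deposited table of raw counts (whole numbers of reads per gene) for 23337 genes in 8 libraries. The second deposited table holds normalized signal, checked to equal those counts divided by 1 size factor per library, and no test uses it. Per the submitters' processing notes, the tools were HTSeq 0.6.1pl, STAR 2.5.2a, cutadapt 1.13 and DESeq2 1.14.1, on build mm10. Annotation and strand setting are not given there or in the labels. Tests used edgeR 4.0.16 (TMM scaling, filterByExpr, quasi-likelihood) in R 4.3.3, within each population for labels and over 8 libraries otherwise, with calls at 0.05 after Benjamini-Hochberg adjustment over all genes tested. Confidence intervals are 95%. The tests were checked on simulated data. Alternatives were DESeq2 1.42.0, limma-voom 3.58.1, other scalings, no filter, a replicate block, other sets of libraries and leaving out each library. Lengths and positions come from GENCODE vM21 (GRCm38), with the longest principal transcript a gene. The 10 members passed the filter on low counts in each comparison.

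The members and lists were chosen with earlier results of these data known. Named genes are the members, Plek2, up to 4 called genes a pathway list (or its most abundant gene per length), and the 3 genes with the highest Pearson correlation of log2(CPM + 1) with each member called for a label effect, among genes of at least 10 mean CPM. Epor was named after its values were seen. Calls within the kinase and STAT list in progenitors are not reported here. Same-numbered libraries did not deviate together throughout (r from -0.12 to 0.18 over pairs of groups), so numbers were not taken as pairs. Replicates differed by more than counting error (chi-square per degree of freedom 5.65 to 15.7).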

Additional observations from a re-analysis of the deposited data

Results flagged for a closer look

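The label effect on Socs3 differed between populations by the interaction test, with a log2 difference (erythroblasts minus progenitors) of -1.24, and so did that on Ptpn6, at -0.59. For Socs3 the effect was 1.04 in progenitors and -0.24 in erythroblasts. For Ptpn6 it was 0.25 and -0.37, so its values pointed in opposite directions, though the progenitor value did not pass the edgeR test (adjusted p = 0.0945).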

How the results depend on the processing

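The Socs3 rise in progenitors and the Socs3 and Ptpn6 interactions passed in each alternative run. All genes called in erythroblasts numbered 348, against 230 with library sizes only, 845 without the filter, 579 with a replicate block and 25 to 995 without 1 library. In progenitors they numbered 646, against 1315 without the filter and 239 to 2649 without 1 library. For the interaction they numbered 742, against 1215 without the filter and 401 to 1175 without 1 library. Population calls without 1 library numbered 8630 to 10051 (Plek2+/+) and 9336 to 10259 (Plek2-/-). Members called in erythroblasts numbered 1, against 2 without the filter, with a replicate block (Sh2b3 at adjusted p = 0.0432) or in the fit of all 8 libraries, and 0 to 2 without 1 library. In progenitors they numbered 1, against 2 without the filter and 1 to 4 without 1 library. Between populations 7 to 9 (Plek2+/+) and 7 to 8 (Plek2-/-) members were called without 1 library, and 2 throughout for the interaction. A library left alone in its group is assumed to vary like the others. The replicate block, where numbers are not pairs, changed no other member's label effect or interaction call. Same-numbered progenitors deviated in opposite directions (r = -0.12), and crossing them, chosen after seeing the data, gave 1327 genes and 2 members called.

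Signs turned for values that did not pass in the first fit. In erythroblasts Socs7 (0.00042) read -0.0018 with DESeq2 size factors or DESeq2, -0.0026 with library sizes only and -0.0097 in the fit of all 8 libraries. Without 1 library, values there ran from -0.70 to 0.63 for Socs1, -0.17 to 0.0096 for Socs2, -0.042 to 0.16 for Socs5, -0.15 to 0.24 for Socs6 and -0.18 to 0.19 for Socs7. In progenitors they ran from -0.16 to 0.29 for Socs1, -0.33 to 0.17 for Socs2, -0.049 to 0.010 for Socs4, -0.15 to 0.010 for Socs6 and -0.18 to 0.012 for Sh2b3. Between populations Socs2 read -0.68 (Plek2+/+) and -0.62 (Plek2-/-) with library sizes only, and -0.029 to 0.30 and -0.072 to 0.43 without 1 library. In the interaction the ranges were -0.77 to 0.53 for Socs1, -0.21 to 0.30 for Socs2 and -0.086 to 0.29 for Socs6. With limma-voom Socs1 read -0.050 in erythroblasts and -0.073 in the interaction. The cause of these changes was not tested. Depth limits Socs1 most, at 16 to 35 reads in erythroblasts.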
